A study of Mus musculus with 18 samples.

Results

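The ionotropic and metabotropic glutamate receptors and the GABA-A, GABA-B and glycine receptors were followed through neuronal differentiation of mouse embryonic stem (ES) cells. Cells with and without knockdown of HPRT were compared. HPRT is the purine salvage enzyme whose loss causes Lesch-Nyhan disease. Members were all genes on the array whose symbol names a subunit of these receptors, and each gene was represented by its brightest probe over all arrays. Of 30869 gene symbols on the array, 47 were members (100 probes, 18 members with a single probe). They were the 4 AMPA, 5 kainate and 7 NMDA receptor subunits, 8 metabotropic glutamate receptors, 16 GABA-A, 2 GABA-B and 5 glycine receptor subunits. Gabra2, Gabre and Gabrr3 had no probe under these symbols and were not analysed here.

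The cells were D3 (ESD3) cells of strain 129s2/SvPas kept on mouse embryo fibroblast feeder cells. Control cells carried a lentiviral (in the labels, retroviral) shRNA against luciferase and HPRT knockdown cells one against HPRT, and transduced cells were selected with puromycin. Both were sampled at the ES stage, as spherical neural masses (SNM) and at the final neuronal stage of a protocol for dopaminergic neurons, so that both groups shared the feeder layer, the viral infection and the protocol. Each of the 6 conditions was measured on 3 Illumina bead arrays (18 in all), and these 3 arrays were hybridised with RNA pooled from replicate cultures. An SD or p-value below thus reflects how well an array measures its RNA pool, and says nothing of how cultures vary. The pools hold mixed cells, in which fewer cells of a type and less RNA per cell cannot be told apart.

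Each array detected between 18827 and 22202 of 45281 probes, where detection means a signal above the negative-control beads at p under 0.05. Levels are log2 signals after background correction and quantile normalization, and a probe between 4.67 and 4.99 on this scale, depending on the array, is at the limit of detection. A gene was tested where it was detected on all 3 arrays of a compared condition, and it was called changed at an adjusted p-value under 0.05 from limma and a change of at least 1.5-fold. Hprt1 itself, the targeted gene, was lower in knockdown cells at every stage, with log2 fold changes of -4.09, -1.76 and -4.45 at the ES, SNM and neuronal stages and adjusted p = 7.15e-15, 3.86e-11 and 9.64e-17 from limma. The knockdown was thus least deep at SNM, 3.39-fold against 21.8-fold at the neuronal stage. Comparisons of the knockdown effect between these stages make no allowance for this.

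Fast excitation in the brain is carried by AMPA, kainate and NMDA receptors, tetrameric channels that open when glutamate binds. Fast inhibition is carried by pentameric chloride channels, the GABA-A receptors throughout the brain and the glycine receptors mainly in spinal cord and brainstem. Metabotropic glutamate receptors and GABA-B receptors act more slowly through G proteins. The subunit make-up of each receptor changes as neurons mature, and it sets kinetics, calcium entry and drug response.

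Most of the subunit genes were near or below the limit of detection. On all 3 arrays of at least 1 condition, 22 of the 47 members were detected; 10 were detected on scattered arrays only and 15 on no array. Among the undetected genes were Grin1, Grin2a, Grin2d, Grin3a, Grm2, Grm3, Grm4, Gabra5, Gabra6, Gabrb2, Gabrq, Gabrr1, Gabbr2 and Glra3. In control cells the number of members detected on all 3 arrays was 4 at the ES stage, 17 at SNM and 19 at the neuronal stage, and in HPRT knockdown cells it was 3, 19 and 17. All 4 AMPA subunits and 4 of 5 kainate subunits were among the detected members, but only 2 of 7 NMDA subunits, 2 of 8 metabotropic receptors, 7 of 16 GABA-A subunits, 1 of 2 GABA-B subunits and 2 of 5 glycine receptor subunits. For Grin1, the subunit present in every NMDA receptor, and Gabbr2, the signalling partner that GABA-B receptors need, a probe that is not detected gives only an upper bound on the RNA, and neither was tested.

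**Figure D1:**
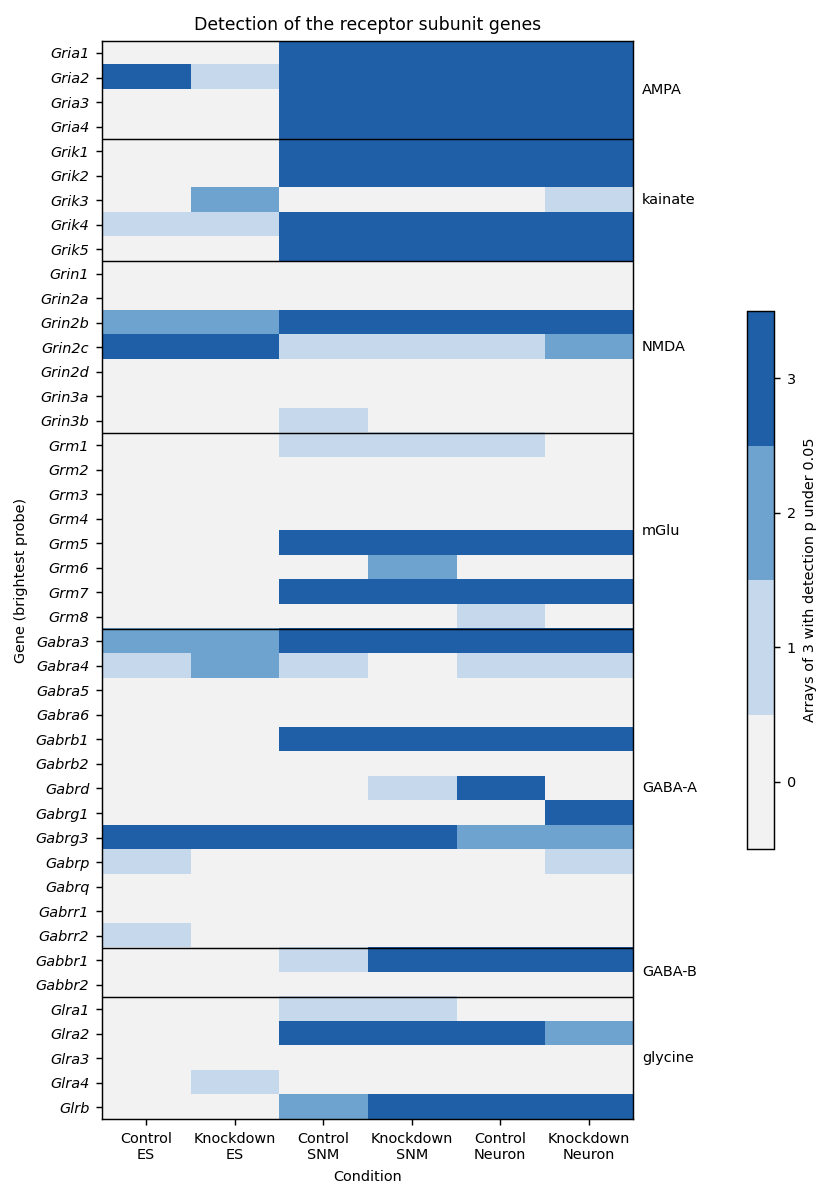
Number of arrays, of 3 per condition, on which 44 of the receptor subunit genes (rows, grouped by family) was detected at p under 0.05 (columns are the 6 conditions). From SNM onwards all 4 AMPA subunits and 4 of 5 kainate subunits were detected on every array. Of the 44 genes, 14 were detected on no array.

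The first question was how the receptor genes changed as control cells differentiated. Between the ES stage and SNM, 13 of the 18 members tested rose in control cells and none fell, where 23.7% of all probes tested were called higher and 25.4% lower. In HPRT knockdown cells 15 of 20 rose and none fell, against 26.4% and 30.9% of all probes. When uncorrected signals were scaled by their 75th percentile instead, 4 rose in control and 8 in knockdown cells. With no call among falls, 1 member, Grin2c, fell at an unadjusted p under 0.05 in each cell type, and the t-test of the study's methods called none. The median change of the members tested was 1.18 in control and 1.23 in knockdown cells on the log2 scale, against -0.08 and -0.11 over all probes tested. Many members were undetected at the ES stage, and with these placed at their detection limit the medians were 0.71 and 0.79. Only 4 members were detected on every ES array of control cells, and 3 on every ES array of knockdown cells. The other members tested qualified by their SNM signal, and a fall could hardly be called for those undetected at the ES stage. The counts of rises and falls therefore cannot be weighed directly against the shares of all probes.

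By brightest probes, the largest rise belonged to Gria3, the AMPA subunit encoded on the X chromosome. Its brightest probe was undetected on all 6 ES arrays and stood at 8.55, 8.54 and 8.87 on the control SNM arrays. That was at least 13.8-fold higher in control cells and at least 11.1-fold higher in knockdown cells. Such a bound compares the brighter condition with, on each array of the other, the lowest detected signal or the probe's own signal if that was higher. Another Gria3 probe was detected on all 6 ES arrays and rose less. Its rise was 2.48-fold in control cells and 1.42-fold, not called, in knockdown cells. Gria2 rose by 1.92 in control and by 3.10 in knockdown cells on the log2 scale, by a probe detected on 1 of 3 knockdown ES arrays. Its other tested probes, undetected at the ES stage, rose by 0.88 and 0.92 in control and by 2.01 and 1.73 in knockdown cells.

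From SNM to the neuronal stage, 11 of 20 members tested rose in control cells and none fell, against 14.3% and 15.1% of all probes. Without a call among falls, Gabrg3 and Grik1 (2 members) fell at an unadjusted p under 0.05, and the methods' t-test called none. Large rises in control cells were those of Glra2 (2.28 on the log2 scale, standard error 0.12), Gria1 (1.88, 0.09) and Grm7 (1.69, 0.07). In HPRT knockdown cells 6 of 20 rose and 4 fell over the same step, against 13.8% and 14.8% of all probes. Among those that fell were Glra2, Grin2b and Gria1, with log2 changes of -1.14, -0.99 and -0.75, and each of the 4 was among the 11 that rose in control cells. Without background correction, under quantile normalization as under 75th percentile scaling, 6 rose in control cells and 1 fell in knockdown cells. With background correction, the 6 that rose in HPRT knockdown cells were Gria4 (1.87), Grm7 (1.86), Glrb (1.16), Grik4 (0.93), Gria2 (0.91) and Gria3 (0.69).

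**Figure D2:**
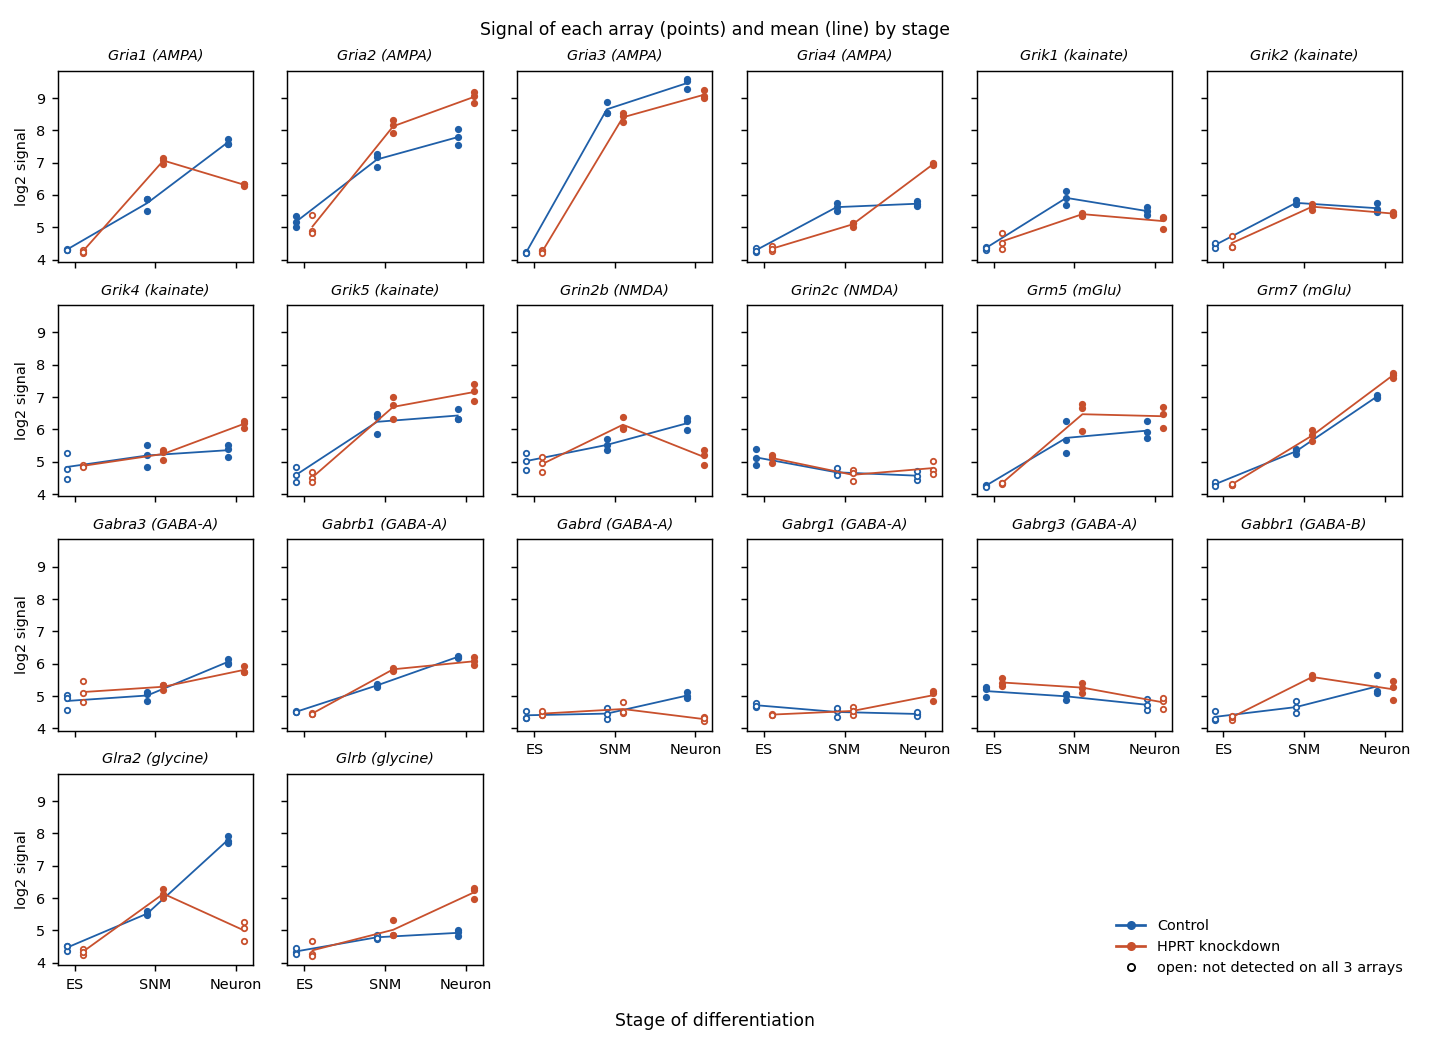
Log2 signal of 20 members detected on all 3 arrays of at least 1 condition, by stage, for control (blue) and HPRT knockdown (orange) cells; points are single arrays, lines join the means, and open points mark conditions in which the gene was not detected on all 3 arrays. Among others, the lines of Gria1, Grin2b, Glra2 and Gria4 cross between SNM and the neuronal stage.

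The second question was how knockdown and control cells differed at each stage. At the ES stage 4 members could be tested (among them Gria2, Grin2c and Gabrg3) and limma called none, where 1.68% of all probes tested were called in either direction. Gabrg3 alone (1 member) passed an unadjusted p under 0.05, with a log2 difference of 0.27, and the methods' t-test called none. At SNM 7 of 19 members tested were higher in HPRT knockdown cells and none was lower, against 10.97% of all probes called higher and 8.90% lower. Without background correction 3 were higher, under quantile normalization as under 75th percentile scaling. Gria3, Gria4 and Grik1 (3 members) were lower at an unadjusted p under 0.05, each by less than 1.5-fold, and the methods' t-test called none lower; these counts rest on brightest probes, and other probes of Gria3 and Grik1 were called lower. The median difference of the members was 0.46 on the log2 scale, against -0.04 over all probes tested.

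At the neuronal stage 20 members were tested. In HPRT knockdown cells 6 were higher and 5 lower, where 13.9% of all probes were called higher and 13.5% lower. Both normalizations without background correction left 3 higher and 3 lower. The median difference was -0.15, against 0.01 over all probes. Of the 7 members higher at SNM, 3 were lower at the neuronal stage (Gria1, Grin2b and Glra2), 1 was higher again (Gria2) and 3 were not called (among them Gabbr1 and Grm5). Of the 6 higher at the neuronal stage, 5 had not been called at SNM. Tested directly as an interaction, the knockdown effect fell from SNM to the neuronal stage for 8 of 21 members and rose for 3, where 14.8% of all probes fell and 13.7% rose. Quantile normalization without background correction left 5 falling and 1 rising.

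**Figure D3:**
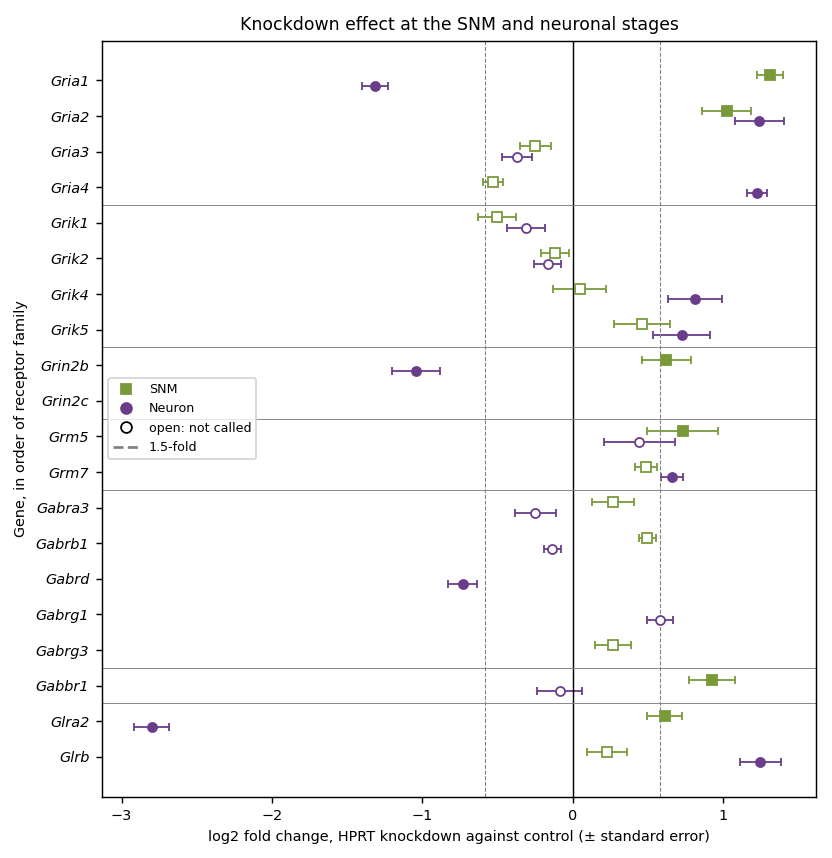
Log2 fold change of HPRT knockdown against control cells at SNM (green squares) and the neuronal stage (purple circles) with its standard error, for 20 members, each where it was tested; filled symbols were called, and dashed lines mark 1.5-fold. SNM symbols lie mostly to the right of 0, while the neuronal stage spreads from -2.80 (Glra2) to 1.25 (Glrb).

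The AMPA receptor subunits moved apart. Gria1, whose product forms calcium-permeable channels when it assembles without the Gria2 product, stood at 5.87, 5.89 and 5.50 on the control SNM arrays and at 7.13, 7.09 and 6.97 on the knockdown SNM arrays. Its neuronal-stage levels were 7.73, 7.59 and 7.57 in control and 6.34, 6.28 and 6.34 in knockdown cells. All knockdown arrays were thus above all control arrays at SNM and below them at the neuronal stage, without overlap. The log2 difference was 1.32 at SNM (standard error 0.09, adjusted p = 4.02e-09 from limma) and -1.31 at the neuronal stage (adjusted p = 1.60e-09 from limma). The other tested Gria1 probes differed less, by 0.56 and 0.51 at SNM, where neither was called, and by -0.69 at the neuronal stage, where the single probe tested was called lower.

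Gria2, whose product is edited so that it makes AMPA receptors impermeable to calcium, was higher in knockdown cells at both stages. At SNM the control arrays gave 6.87, 7.17 and 7.26 and the knockdown arrays 7.91, 8.16 and 8.30. In neuronal-stage cells they gave 7.54, 8.03 and 7.80 against 8.85, 9.05 and 9.19. Neither set overlapped, and the log2 differences were 1.03 (standard error 0.16, adjusted p = 7.12e-05 from limma) and 1.24 (adjusted p = 6.77e-06 from limma). At the ES stage the groups overlapped, with a log2 difference of -0.15 (adjusted p = 0.609 from limma). The brightest Gria2 probe carries no RefSeq accession; the other tested Gria2 probes gave 1.14 and 0.68 at SNM and 1.21 and 1.34 at the neuronal stage, all called higher.

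Gria4 was called at the neuronal stage only, in the opposite direction to Gria1. Its level at the neuronal stage was 5.73 ± 0.07 in control (mean ± SD of 3 arrays) and 6.96 ± 0.04 in knockdown cells, without overlap, and thus 2.34-fold higher (log2 1.23, adjusted p = 1.90e-10 from limma), after a difference of -0.53 at SNM that did not reach 1.5-fold. Its other tested probe differed by 0.42 at the neuronal stage and was not called. Gria3 was not called by its brightest probe, with log2 differences of -0.25 at SNM and -0.37 at the neuronal stage. Another Gria3 probe was called lower at SNM (-0.72) and higher at the neuronal stage (0.80), so that the probes of Gria3 disagree in direction at the neuronal stage.

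Kainate receptor subunits were not called at SNM by their brightest probes, but another Grik1 probe was called lower there (log2 difference -0.61, adjusted p = 5.03e-05 from limma), without overlap, against -0.50 for the brightest. In neuronal-stage cells the high-affinity subunits Grik4 and Grik5, which form channels only together with other kainate subunits, were higher in HPRT knockdown cells, while the channel-forming subunits Grik1 and Grik2 differed by -0.31 and -0.17 and were not called. Grik4 stood between 5.15 and 5.52 in control cells (mean 5.36) and at 6.27, 6.04 and 6.21 in knockdown cells, without overlap (log2 difference 0.82, standard error 0.18, adjusted p = 9.27e-04 from limma). For Grik5 the corresponding difference was 0.73 (adjusted p = 0.00353 from limma), and its other probe gave 0.65. Quantile normalization without background correction left Grik4 below 1.5-fold, with a log2 difference of 0.43.

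Of the NMDA receptor subunits only Grin2b and Grin2c were detected on all arrays of any condition. Grin2b encodes the glutamate-binding subunit that predominates in the embryonic brain. On the control SNM arrays it stood at 5.35, 5.51 and 5.69 and on the knockdown SNM arrays at 6.03, 6.02 and 6.38; at the neuronal stage it stood at 5.99, 6.34 and 6.25 against 4.89, 5.20 and 5.37. Control and knockdown arrays did not overlap at either stage. The log2 difference was 0.63 at SNM (adjusted p = 0.00413 from limma) and -1.04 at the neuronal stage (adjusted p = 4.04e-05 from limma). At SNM its change lay close to 1.5-fold and the call was lost without replicate 1 of control SNM (0.54) or replicate 3 of knockdown SNM (0.51). Without background correction it fell under 1.5-fold at both stages, at 0.34 and -0.54 under quantile normalization. Grin2c was detected on all arrays at the ES stage only, where its log2 difference was -0.02 (adjusted p = 0.947 from limma).

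Among metabotropic glutamate receptors, Grm5, a Gq-coupled receptor, and Grm7, a presynaptic Gi-coupled receptor, were the members tested at SNM and at the neuronal stage. Grm7 stood at 6.99, 6.98 and 7.06 on the control arrays of the neuronal stage and at 7.60, 7.69 and 7.73 on the knockdown arrays, without overlap (log2 difference 0.66, standard error 0.07, adjusted p = 1.01e-06 from limma). Without background correction it was 0.51 under quantile normalization, under 1.5-fold, while another Grm7 probe gave 1.95. Grm5 was called higher at SNM (0.73, adjusted p = 0.0163 from limma), but its control arrays (5.28, 5.67 and 6.26) overlapped its knockdown arrays (5.96, 6.67 and 6.78). Control and knockdown SNM arrays of equal number varied together for numbers 1 and 3 (correlations of 0.486 and 0.489) but hardly for number 2 (0.108). Between arrays of equal number Grm5 was higher in knockdown cells in 3 of 3 pairs, by 0.68, 0.99 and 0.52 (adjusted p = 0.00157 from limma with array number as a replicate block). That call was lost without replicate 1 of control SNM or without replicate 2 or 3 of knockdown SNM, with log2 differences of 0.50, 0.63 and 0.57.

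GABA-A receptors are assembled most often from alpha, beta and gamma subunits. Gabrd, a subunit of extrasynaptic receptors, was detected on the control arrays of the neuronal stage (5.11, 5.00 and 4.94) and on none of the knockdown arrays. Its bound was at least 1.21-fold, below the 1.5-fold needed, although the fitted log2 difference of -0.73 was called (adjusted p = 7.88e-06 from limma). Gabrg1 gave the reverse, with detection on the 3 knockdown arrays only and a bound of at least 1.25-fold; its fitted difference of 0.58 stood just under 1.5-fold. Gabra3, the alpha subunit detected most often, differed by 0.27 at SNM and by -0.25 at the neuronal stage and was not called, and Gabrb1 differed by 0.50 and -0.14 and was not called.

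Gabbr1 carries the GABA-binding site of GABA-B receptors. It was detected on 1 of 3 control SNM arrays (4.47, 4.68 and 4.84) and on all knockdown SNM arrays (5.58, 5.65 and 5.55), without overlap, a log2 difference of 0.93 (standard error 0.15, adjusted p = 9.27e-05 from limma). Quantile normalization without background correction reduced this to 0.42, under 1.5-fold. By the neuronal stage the arrays overlapped, at 5.08, 5.15 and 5.65 in control and 4.88, 5.46 and 5.29 in knockdown cells (log2 difference -0.09, adjusted p = 0.656 from limma).

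The glycine receptor subunits Glra2 and Glrb changed in opposite directions at the neuronal stage. Glra2 encodes the ligand-binding alpha subunit of the immature brain. It stood at 5.59, 5.50 and 5.47 on the control SNM arrays and at 6.01, 6.27 and 6.12 on the knockdown SNM arrays, a log2 difference of 0.61 (adjusted p = 3.31e-04 from limma) that was 0.54, and not called, without replicate 2 of knockdown SNM, and 0.33 under quantile normalization without background correction. In neuronal-stage cells it stood at 7.78, 7.91 and 7.71 in control and at 4.67, 5.25 and 5.07 in knockdown cells, with detection on 2 of 3 knockdown arrays. It was 6.96-fold lower there, the largest fall of any member (log2 -2.80, standard error 0.12, adjusted p = 4.71e-12 from limma).

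Glrb encodes the beta subunit, which binds gephyrin and holds glycine receptors at synapses. It overlapped between control and knockdown cells at SNM (log2 difference 0.23, adjusted p = 0.164 from limma). Later, in neuronal-stage cells, the control arrays gave 4.83, 4.94 and 5.01 and the knockdown arrays 5.96, 6.25 and 6.31, without overlap, 2.38-fold higher in knockdown cells (log2 1.25, standard error 0.13, adjusted p = 6.86e-07 from limma). The other Glrb probe gave 1.24.

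In the mouse reference annotation (RefSeq, GRCm38.p6), where all 47 symbols were found, several members are next to each other among protein-coding genes. Gria2 and Glrb, both higher in knockdown cells at the neuronal stage, are neighbours on chromosome 3. Gabrg3 was close to the detection limit and was not called between knockdown and control cells where it was tested (ES and SNM), and Gabra5 was not detected.

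Upstream sequence from RefSeq (GRCm38.p6) was found for 33 of the 47 members, and for 14 of the 22 that were detected. The 250 bases before the start of each gene were searched on both strands for 10 short motifs, which describe letters only and not binding. A member counts once if any of its promoters holds the motif (33 members, 40 promoters). The percentages are shares of promoters, so the units differ. The left arm of the RE1 element bound by the neuronal gene repressor REST (TTCAGCAC) was found for 2 members, Glra2 and Grm2, and in 0.962% of all 32851 promoters; its right arm (GGACAGC) was found for 4, Glra2, Glrb, Gria2 and Grm2, and in 5.28% of all promoters. Among core promoter motifs, TATAAA (the TATA box) was found for 4 members and in 12.4% of all promoters, GGGCGG (the GC box) for 18 members and in 32.7%, and CCAAT (the sequence that NF-Y binds) for 14 members and in 33.8%. Of the E boxes, bound by basic helix-loop-helix proteins, CACGTG was found for 1 member (in 1978 promoters of the 32851), CAGATG for 3 members (4745 promoters) and CAGCTG for 2 members (4271 promoters). No member had TGACGTCA (cAMP response element, 1.55% of all promoters) or ATTTGCAT (octamer, 1.60%).

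The 250 bases before the start are shown for the glycine receptor pair that changed in opposite directions and for Gria2, the neighbour of Glrb, with the RE1 arms in capitals. All 3 genes lie on the minus strand and the sequences run 5′ to 3′ along the gene, at chrX:165327394-165327643 for Glra2, chr3:80913661-80913910 for Glrb and chr3:80802836-80803085 for Gria2. The capitals are the arms read from the opposite strand. In Glra2 both arms stand together, beginning 54 (right arm) and 45 (left arm) bases before the start, whereas Glrb and Gria2 hold the right arm alone, beginning 246 and 171 bases before the start.
Glra2: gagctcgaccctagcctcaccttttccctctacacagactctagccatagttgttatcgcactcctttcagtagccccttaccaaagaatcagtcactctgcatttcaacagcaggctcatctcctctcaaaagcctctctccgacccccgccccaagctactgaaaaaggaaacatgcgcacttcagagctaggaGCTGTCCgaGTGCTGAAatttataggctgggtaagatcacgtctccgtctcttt
Glrb: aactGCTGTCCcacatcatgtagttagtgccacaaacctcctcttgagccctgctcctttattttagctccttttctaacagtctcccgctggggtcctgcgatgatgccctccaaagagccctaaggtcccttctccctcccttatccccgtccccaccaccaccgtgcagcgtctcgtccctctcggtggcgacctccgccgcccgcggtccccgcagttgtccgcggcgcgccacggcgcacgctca
Gria2: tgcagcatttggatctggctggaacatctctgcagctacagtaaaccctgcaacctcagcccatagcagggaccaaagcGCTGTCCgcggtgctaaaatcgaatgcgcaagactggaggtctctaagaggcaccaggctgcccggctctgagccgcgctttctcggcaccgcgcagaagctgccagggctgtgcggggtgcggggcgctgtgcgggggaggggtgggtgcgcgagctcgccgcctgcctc

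The knockdown effects of these 3 genes at the neuronal stage were -2.80 for Glra2, 1.25 for Glrb and 1.24 for Gria2 on the log2 scale.

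Proteins that hold the receptors at synapses and set their number were examined as 2 of 4 partner lists. Over all probes tested, 10.97% were called higher and 8.90% lower at SNM, and 13.9% and 13.5% at the neuronal stage. Of the auxiliary subunits and scaffolds of glutamate receptors (28 genes listed), 5 of 17 tested were higher and 2 lower in knockdown cells at SNM, with a median log2 difference of -0.03. In neuronal-stage cells 5 of 19 were higher and 5 lower, with a median of -0.34. The largest rise at SNM was that of Nptx2 (1.32, adjusted p = 2.41e-08 from limma), a secreted pentraxin that clusters AMPA receptors, and the largest fall that of Homer2 (-0.72), which links group I metabotropic receptors to calcium stores. At the neuronal stage the largest rise was that of the scaffold gene Dlgap1 (1.86, adjusted p = 2.32e-08 from limma) and the largest fall that of Dlg2 (-1.17, adjusted p = 5.62e-07 from limma), a PSD-95 relative that binds NMDA receptors.

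Of the genes for clustering and trafficking of GABA and glycine receptors (12 listed), 4 of 9 tested were higher and none lower at SNM, and 5 of 9 were higher and 1 lower at the neuronal stage, with medians of 0.51 and 0.62. Against these counts stood 10.97% of all probes higher and 8.90% lower at SNM, and 13.9% and 13.5% at the neuronal stage. Gphn, which encodes gephyrin itself, was not called. Kctd12, an auxiliary subunit of GABA-B receptors, was the largest rise at SNM (0.82) and the single fall at the neuronal stage (-1.50, adjusted p = 1.35e-06 from limma).

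Genes that make, load and clear the transmitters formed the other 2 lists. The shares over all probes were again 10.97% higher and 8.90% lower at SNM, and 13.9% and 13.5% at the neuronal stage. Among genes for glutamate synthesis and transport (12 listed), 3 of 11 tested were higher and 1 lower at SNM, and 3 of 11 were higher and 2 lower at the neuronal stage. The vesicular glutamate transporter Slc17a6 was lower at the neuronal stage (log2 difference -3.74, adjusted p = 1.51e-13 from limma), and the plasma membrane transporter Slc1a1 was higher by 3.44 (adjusted p = 2.83e-12 from limma). At SNM the largest rise was that of Slc17a8, another vesicular transporter (1.15).

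Among genes for GABA and glycine synthesis and transport and for chloride transport (12 listed), 7 of 9 tested were higher and none lower at SNM, and 3 of 10 were higher and 3 lower at the neuronal stage. Medians were 1.36 and 0.08, the former 1.15 with undetected genes at their bound. The largest rise at SNM was that of the GABA transporter Slc6a11, undetected on all control arrays and at least 6.99-fold higher in knockdown cells. At the neuronal stage Slc32a1, which loads GABA and glycine into vesicles, was the largest fall (-3.15, adjusted p = 1.44e-11 from limma), and the glycine transporter Slc6a9 the largest rise (1.38, adjusted p = 3.46e-09 from limma). At the ES stage 1 gene of the 4 lists was called, Gad1, which makes GABA (0.72, adjusted p = 1.14e-05 from limma). Of all probes tested at that stage, 1.68% were called in either direction.

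**Figure D4:**
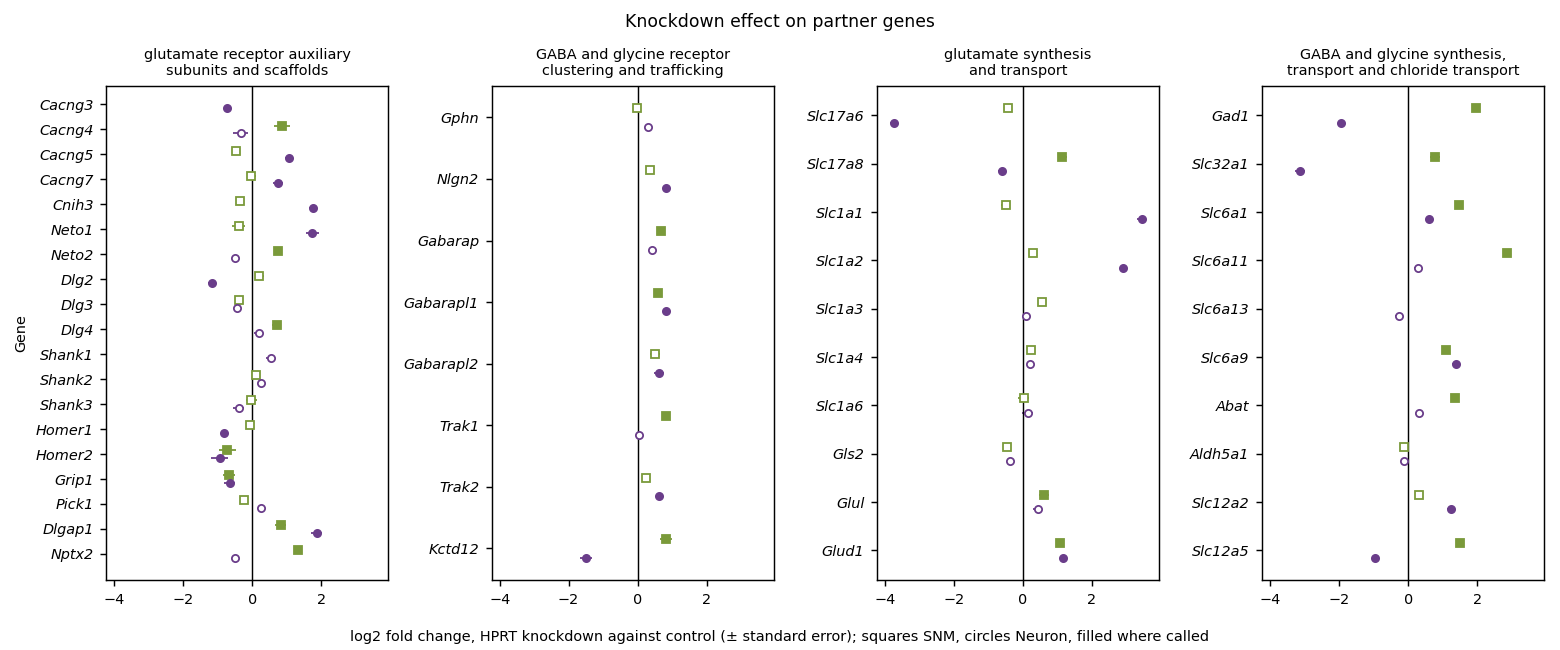
Log2 fold change of HPRT knockdown against control cells (with standard error) for tested genes of the 4 partner lists, at SNM (squares) and the neuronal stage (circles), filled where called. Slc17a6 (-3.74) and Slc32a1 (-3.15) fell and Slc1a1 (3.44) rose furthest at the neuronal stage.

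The neuronal stage differed in cell type markers too. Of all probes tested there, 13.9% were called higher and 13.5% lower in knockdown cells. In knockdown cells, 6 of 8 neuron markers tested were lower and none higher at the neuronal stage, and their summed signal lay between 7618 and 8486 on control arrays and between 1365 and 1566 on knockdown arrays. Tubb3, Snap25 and Nefl were not detected on any knockdown array of this stage, and Snap25 and Nefl on no control array either. Oligodendrocyte markers were higher for 11 of 12, with summed signals of 5187 to 5598 in control and 68726 to 71575 in knockdown cells. Skeletal muscle markers were lower for 11 of 12, with 69605 to 70153 in control and 162 to 269 in knockdown cells, where Chrna1, Ckm, Myod1, Myog, Tnnt3 and Ttn were undetected. Of 11 astrocyte and radial glia markers 6 were higher and 1 lower (17281 to 18610 against 21549 to 22699), and of 8 fibroblast markers 7 were lower (21569 to 24788 against 11214 to 14456). Pluripotency markers were lower for 6 of 7 (3581 to 3753 against 932 to 992). Of the microglia markers 1 was tested and not called, and 6 were undetected on every array of this stage.

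At SNM, 3 of 8 neuron markers were lower in knockdown cells (summed signal 4827 to 5231 in control, 4041 to 4233 in knockdown), 9 of 11 muscle markers were higher (1166 to 1208 against 2365 to 2639), 5 of 11 astrocyte and radial glia markers were higher (19051 to 20810 against 29449 to 29892), and 1 of 11 oligodendrocyte markers was higher and 5 lower (15136 to 15560 against 11056 to 11867). Fibroblast markers were higher for 2 of 8 and pluripotency markers lower for 5 of 7. Of all probes tested at SNM, 10.97% were called higher and 8.90% lower. No neuron marker was called higher at SNM, and 7 receptor genes were. At the neuronal stage 5 receptor genes were called lower, among them Glra2, Gria1, Grin2b and Gabrd, the last with a bound below 1.5-fold. The 6 that were higher there were Gria2, Gria4, Glrb, Grik4, Grik5 and Grm7. The part of these cell type markers in the receptor changes was not tested.

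**Figure D5:**
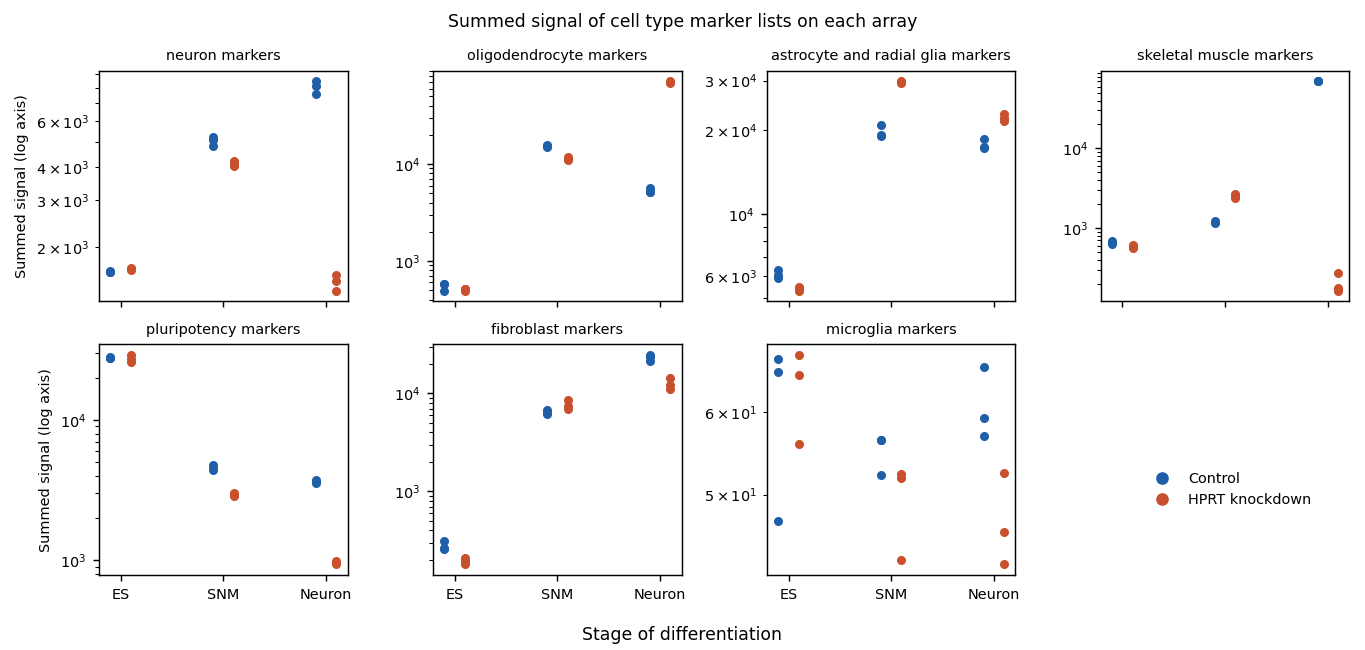
Summed background-corrected signal (log axis) of each cell type marker list on every array, for control (blue) and HPRT knockdown (orange) cells at the 3 stages. At the neuronal stage neuron and muscle markers are lower and oligodendrocyte markers higher on all 3 knockdown arrays.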

How the data were processed

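For each probe and array the authors deposited the signal intensity, a bead average without background subtraction or scaling, together with the detection p-value, the share of negative-control beads brighter than the probe. A deposited annotation table named the probes; its 72 columns of per-sample values carry names that no label pairs with samples and were not used. The annotation build was not given in the sources used here.

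Intensities were background-corrected from the detection p-values, offset by 16, quantile-normalized and log2-transformed (neqc, limma 3.58.1, R 4.3.3). A single limma model (lmFit, contrasts.fit, eBayes) with the 6 conditions was fitted to 18 arrays, and Benjamini-Hochberg adjustment ran over all probes tested, that is, detected at p under 0.05 on 3 of 3 arrays of a compared condition. Tests are two-sided. An exact permutation test of 3 arrays against 3 cannot go below p = 0.1. The number of arrays limits the precision of each mean. Marker signals were summed after subtracting the offset.

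The titles number the arrays. At SNM, control and knockdown arrays of equal number varied together (correlations of 0.486, 0.108 and 0.489 between deviations from the condition means), at the neuronal stage less evenly (0.605, 0.0938 and 0.325) and at the ES stage hardly (-0.0938, 0.0254 and 0.0959); the number was therefore also run as a replicate block.

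Values are given for every member called at the ES stage, for the called member of largest change in each direction per family and stage whose arrays do not overlap, for Grin1, Gria2, Gabbr1, Gabbr2 and Glrb, and for the largest rise and fall of each partner list; other members were named after their values were seen. Members and lists were chosen with earlier results of these data known. Of the 47 members, 37 matched a RefSeq accession of the same symbol. Alternatives were other normalizations, detection and fold limits, the mean over a gene's probes, the replicate block, the methods' t-test, and leaving out each array. Values of some listed genes are not reported here, though they remain in the counts. RNA-Seq data were not analysed here.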

Additional observations from a re-analysis of the deposited data

Results flagged for a closer look

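By brightest probes, the knockdown effect differed between SNM and the neuronal stage for 11 of 21 receptor genes tested, by the interaction term of limma. The difference (neuronal stage minus SNM, log2) was negative for 8. For Glra2 it was -3.41 (adjusted p = 5.63e-11), for Gria1 -2.63 (adjusted p = 3.58e-11) and for Grin2b -1.67 (adjusted p = 1.71e-05). It was -1.02 for Gabbr1, -0.87 for Gabrd and -0.63 for Gabrb1, of which Gabrd was detected on a single SNM array and on no knockdown array of the neuronal stage. The difference was positive for Gria4 (1.76, adjusted p = 2.81e-10), Glrb (1.02, adjusted p = 3.43e-04) and Grik4 (0.77, adjusted p = 0.0199). Another Gabrb1 probe, detected on all SNM and neuronal-stage arrays, gave -0.14 (adjusted p = 0.394 from limma) and was not called. For Gria4 another probe gave 0.57, also not called, while another Glrb probe gave 1.23 and the other Gria1 probes -1.25 and -0.87, all called. These p-values come from limma and cover the error between arrays of 1 RNA pool per condition.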

How the results depend on the processing

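The array number as a replicate block changed no call: 7 members stayed called at SNM, 11 at the neuronal stage and 11 in the interaction, with the same genes in each. Without background correction, counts shrank. Quantile normalization alone gave 3 higher at SNM, 3 higher and 3 lower at the neuronal stage, 5 falling and 1 rising in the interaction, and, from SNM to the neuronal stage, 6 rising in control and 1 falling in knockdown cells; scaling to the 75th percentile gave 3, 3, 3, 5 falling, 6 and 1 for the same counts, and 4 (control) and 8 (knockdown) rising from ES to SNM, a step over which the median of all probes moved by -0.17 and -0.21 under that scaling. A limit of at least 2-fold left 3 higher at SNM, 3 higher at the neuronal stage, 6 rising in control and 3 rising and 1 falling in knockdown cells from SNM to the neuronal stage. With the mean of all probes of a symbol, 2 members fell in knockdown cells over that step.

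Leaving out each array in turn (18 fits) gave 0 to 1 members lower at SNM (Grik1 without replicate 1 of control SNM, log2 -0.61; Gria4 without replicate 2 of control SNM, log2 -0.59), 0 to 1 falling from ES to SNM in control and 0 to 1 in knockdown cells; all other counts stayed within 1.5 times, with 5 to 7 higher at SNM. Grik5 gained a call at SNM without replicate 3 of knockdown SNM (0.64), Grm5 at the neuronal stage without replicate 1 of knockdown Neuron (0.63), and Gabrg1 there in 7 of the 18 fits (log2 0.59 to 0.67). Among 592 recomputed differences of 12 named members, 15 lost and 1 gained a call and none reversed one. The methods' t-test was not run on the interaction, and Grin1 and Gabbr2 were below detection throughout. The cause of these changes was not tested.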
